A study of Porolithon cf. onkodes and Sporolithon durum with 38 samples.

Results

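Porolithon onkodes is a crustose coralline alga, a red alga that lays down calcium carbonate in its cell walls and cements tropical reefs. The question here was which of its transcripts differ when reduced pH is added to elevated temperature. The comparison used the 5 libraries of the T+pH treatment (29.5 °C, pH 7.7, pCO2 1000 µatm). Against them stood the 4 libraries of the T treatment (29.5 °C, pH 8.0, pCO2 450 µatm). Together they make 9 of the 17 P. onkodes libraries with counts and of the 38 samples of the series. The sample labels name 19 P. onkodes libraries, but PO9 (reduced pH) and PO13 (control) had no counts here. The other P. onkodes libraries with counts were 4 of the pH treatment (27.2 °C, pH 7.7, pCO2 1000 µatm) and 4 of the control (27.2 °C, pH 8.0, pCO2 450 µatm). They serve below to show reduced pH at the lower temperature. Algae stayed 3 months in these conditions in aquaria, as fragments of the orange morph taken from the reef, and RNA came from the pigmented surface tissue. Per the paper, water was heated and CO2 was injected in sumps that fed the tanks. The labels give no sump or tank for a fragment, so an effect of either cannot be told apart from that of pH. Fragments of wild algae carry other organisms, so transcripts whose closest match was bacterial were also followed.

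In seawater, added CO2 lowers the pH and the saturation of carbonate and raises the dissolved inorganic carbon that photosynthesis can use. The Calvin cycle in the plastid fixes that carbon: phosphoribulokinase regenerates the acceptor of CO2, and phosphoglycerate kinase, glyceraldehyde-3-phosphate dehydrogenase (GAPDH) and aldolase carry the product towards sugars. Photorespiration recovers the carbon lost when the same carboxylase takes oxygen in place of CO2. The plastid terminal oxidase and the mitochondrial alternative oxidase pass electrons from quinols to oxygen without storing their energy, and are known in plants and algae as outlets for surplus electrons.

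The libraries were made with CEL-Seq2, which tags the 3′ end of each RNA and counts unique molecular identifiers (UMIs), and counts were given per transcript of a de novo assembly. Of 118126 transcripts, the 25661 with 5 or more counts in total over the 9 libraries (21.7%, from 19084 assembled genes) were tested. Values are given as CPM, the counts scaled to a common library size. A differentially expressed transcript (DEG) had a false discovery rate (FDR) under 0.05, with a log2 fold change beyond 0.3 in either direction, in edgeR's quasi-likelihood F-test, fitted over the 17 libraries with Benjamini-Hochberg adjustment; the FDRs below come from this test.

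Library totals ran from 78142 to 3012292 counts in T+pH (median 861006) and from 191000 to 2874863 in T (median 492303.5), and mean log10 totals did not differ beyond their spread (two-sided exact permutation test, p = 0.873, smallest possible p 0.0159). Library PO19 of T+pH was the shallowest and stood apart. It held 6810 transcripts with a count and 32% of its counts in 10 transcripts, and its median rank correlation with the other T+pH libraries was 0.53, against 0.81 to 0.84 for the others. One count in PO19 is worth 18.1 CPM, so that 0 counts there allow a level of up to 54.3 CPM (counting error only). The column of PO12 holds another total than the one listed for this library in the study's read statistics, and PO19 does not appear there, so counts were also made without both libraries. The gamma chain of R-phycoerythrin (DN70577_c1_g3_i1), a light-harvesting protein of red algae, had counts in 4 of 5 T+pH libraries and 4 of 4 T libraries and was missing in PO19.

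The 31 transcripts with a closest match in bacteria or archaea were summed as a sign of RNA from other organisms. Such a match does not settle the source of the RNA. Most members of the lists used here have a name because the study called them in comparisons with these same T+pH libraries. The sum is therefore not an independent measure of such RNA. The summed level of the 31 was 1340 to 3186 CPM in T+pH (median 1923) and 2298 to 3606 CPM in T (median 2665). These ranges overlap only through T+pH library PO15 (3186 CPM). The other T+pH libraries, PO6, PO7, PO12 and PO19, had 1923, 1708, 2232 and 1340 CPM, all below the lowest T library. Yet 20 of the 31, which come from 25 assembled genes, had positive log2 fold changes of T+pH over T (median 0.86). The sum gives most weight to abundant members, so its lower level does not hold for most of the 31. The part of the lower sum in the results below was not tested.

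Reduced pH at high temperature went with higher transcript levels of phosphoribulokinase, GAPDH and a ferredoxin-like protein and lower levels of a Myb-like protein, calls that were kept with any one of the 17 libraries left out. Transcripts of aldolases were also higher, and those of a plastid-type oxidase, a DnaJ chaperone, a nitrate transporter and glucose-6-phosphate dehydrogenase were lower, but these calls were lost without at least 1 library, and those of DnaJ and glucose-6-phosphate dehydrogenase were kept with only 6 and 4 of the 17 left out in turn. In all, 36 transcripts of 31 assembled genes were DEGs (0.140% of those tested). Of these, 13 were higher in T+pH than in T (0.0507%) and 23 were lower (0.0896%). The median log2 fold change was 3.39 for the higher and -2.95 for the lower ones, and 0.02 over all tested transcripts. In bulk tissue, fewer cells of a kind and less RNA per cell cannot be told apart. With the transcripts that had no count in one treatment set to their lower bound, these medians were 3.38 and -2.95. At an unadjusted p below 0.05, 2270 transcripts passed. On counts simulated once with the dispersions of these data, the share of false calls was above the FDR threshold, so the FDRs and the count of 36 may be too favourable. The T+pH libraries lay entirely above or below the T libraries for 25 of the 36 DEGs, 9 above and 16 below. Over all tested transcripts this was so for 1.22%, with 0.436% above and 0.783% below. The DEGs were chosen on the same libraries, so their larger share is not independent support. A 0 in PO19 can place a transcript below but never above, and 0 counts there allow up to 54.3 CPM. The lowest T library was under this bound for isoforms i1 and i3 of DN67878_c0_g1 (5.69 CPM) and for DN70529_c0_g2_i1 (41.7 CPM) and i2. For the other non-overlapping lower DEGs with 0 counts in PO19, it had 64.9 CPM or more. DN61166_c0_g1_i1 had 1 count in PO19 (18.1 CPM), against 21.4 CPM in the lowest T library. By dispersion, 2 of the 36, DN32706_c0_g2_i1 and DN59287_c0_g1_i1, fell in the tenth of tested transcripts with the highest values. The F-test weighs each change against the dispersion, so this share is shaped by the selection and says nothing about the false calls.

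**Figure D1:**
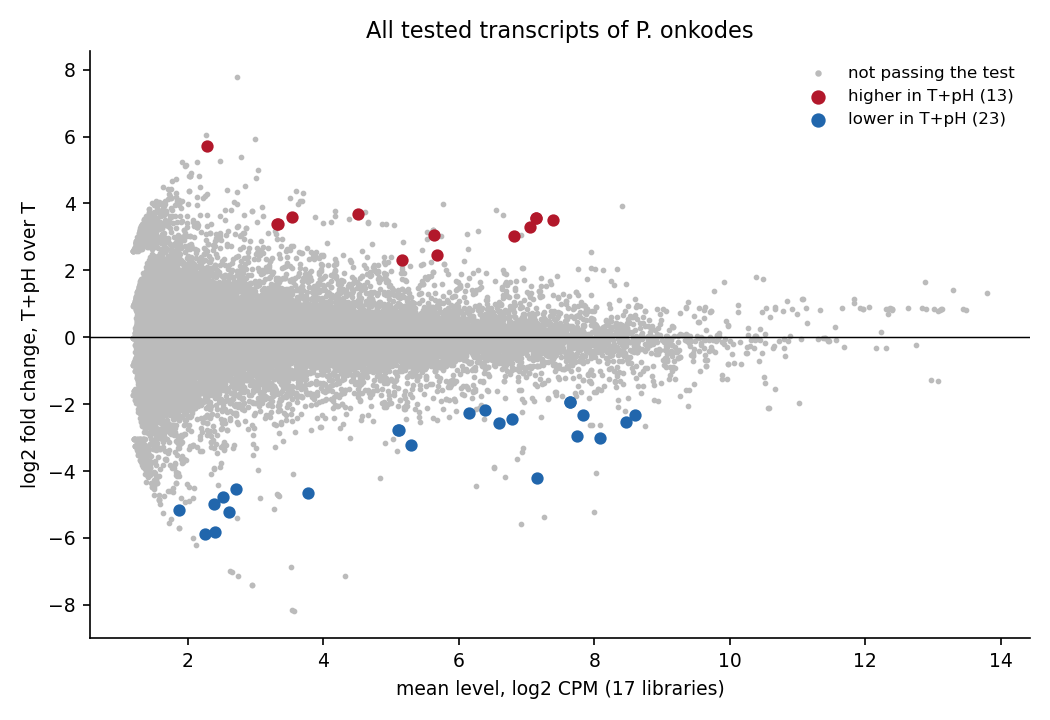
Log2 fold change of T+pH over T (y axis) against mean level in log2 CPM over 17 libraries (x axis) for all 25661 tested transcripts. Grey points did not pass the test, red points are the 13 DEGs higher in T+pH and blue points the 23 lower in T+pH; many grey points at low level have folds as large as the DEGs.

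The number of DEGs depended on single libraries. Without PO15, the deepest T+pH library, 9 DEGs were left, all of them among the 36, and without PO12 there were 19. Leaving out T library PO1 gave 23 DEGs and leaving out PO2 gave 24, of which 15 were among the 36. Leaving out T+pH libraries PO6 or PO7 gave 57 and 70. Without both PO12 and PO19 there were 10. Of the 36, 5 passed with any one of the 17 libraries left out: phosphoribulokinase, GAPDH and a ferredoxin-like transcript among the higher, and a Myb-like protein and an unnamed transcript among the lower. With all libraries thinned to the smallest total, 28 of the 36 could still be tested and 11 of these lost their call, and with isoforms summed per assembled gene 15 of the 36 did. With the log10 library total as a covariate, 9 of the 36 lost their call.

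**Figure D2:**
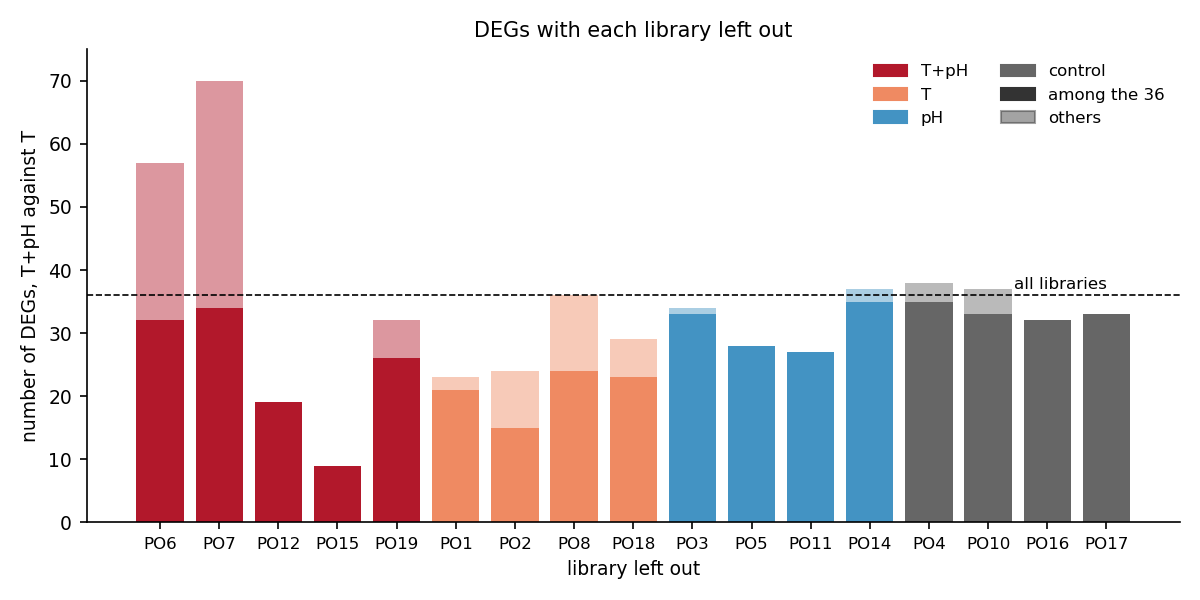
Number of DEGs between T+pH and T (y axis) when the library on the x axis was left out, coloured by its treatment; the dark part of each bar counts DEGs among the 36 found with all libraries, the pale part others, and the dashed line marks 36. The count drops to 9 without PO15 and reaches 70 without PO7.

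Per-library values are given in the order PO6, PO7, PO12, PO15, PO19 for T+pH and PO1, PO2, PO8, PO18 for T. Protein names are those that the study's supplementary annotation pairs with the transcripts, from the closest hits of similarity searches in red algae, plants and other organisms, and not direct identifications in this alga.

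Phosphoribulokinase (DN72649_c1_g2_i2) changed with the smallest p of all transcripts. It had 230, 265, 401, 431 and 254 CPM in T+pH libraries, against 10.7, 24.6, 50.1 and 45.5 CPM in T libraries. The lowest T+pH library was above the highest T library by a wide gap, in the shallow PO19 as well. Its mean was 316 ± 92.8 CPM in T+pH (SD, n = 5) and 32.7 ± 18.4 CPM in T (SD, n = 4), a log2 fold change of 3.29 ± 0.47 (SE, FDR 0.000123). The fold change stayed between 3.03 and 3.64 with any library left out. In the pH treatment it had 66.5 to 95.1 CPM and in the control 24.8 to 76.1 CPM, so the T+pH libraries were also above all libraries of these treatments. A second transcript with this name, DN73854_c3_g3_i3, had a log2 fold change of 1.22 and did not pass (FDR 0.391), and another isoform of the same assembled gene carries the name of a cytochrome b6-f subunit.

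GAPDH (DN74877_c1_g1_i1), matched to the chloroplast enzyme, was also higher in T+pH. It had 91.7, 244, 382, 454 and 90.6 CPM in T+pH, against 49.99, 13.4, 40.1 and 28.4 CPM in T. The treatments did not overlap, but PO6 and PO19 were the nearest to the T libraries and PO15 was the highest. The log2 fold change was 3.03 ± 0.51 (SE, FDR 0.00136). Another GAPDH transcript, DN76651_c3_g2_i3 (a green algal hit), had a log2 fold change of 2.59 with overlapping ranges and did not pass (FDR 0.196). DN74877_c1_g1_i1 is one of the few of which the study gave a piece of sequence, as the RT-qPCR primer pair that identifies it. Both primers are 20 bases long and shown in lower case because no base is singled out. No RT-qPCR value was used here.
DN74877_c1_g1_i1 forward primer: tgtcattgctggcgaggatt
DN74877_c1_g1_i1 reverse primer: cttcgctcccgcctgaatat

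Aldolase, which joins and splits sugar phosphates in the Calvin cycle and in glycolysis, was represented by 4 DEGs of 3 assembled genes, all higher in T+pH. For fructose-1,6-bisphosphate aldolase DN74098_c0_g1_i1, T+pH libraries had 9.12, 31.3, 36.9, 127 and 18.1 CPM, against 7.14, 1.64, 5.01 and 5.69 CPM in T libraries. The ranges did not overlap, yet PO15 alone held 421 of the 480 T+pH counts. The fitted log2 fold change was 3.69 ± 0.70 (SE, FDR 0.00729), and it was 2.64 without PO15 (FDR 0.218), 3.11 without T library PO2 (FDR 0.0919) and 1.98 with all libraries thinned to the smallest total (FDR 0.590). Plastid-type aldolase DN76222_c0_g1_i1 had 79.2 to 926 CPM in T+pH, highest in PO15, and 22.7 to 51.3 CPM in T (log2 fold change 3.51, FDR 0.0211). DN76222_c0_g1_i1 did not pass without PO12, PO19, PO1, PO2 or PO18 (FDR up to 0.0810). Its call was also lost with the log10 library total as a covariate and without both PO12 and PO19 (FDR up to 0.193). The isoforms i1 and i2 of DN75582_c0_g4, matched to a cytoplasmic aldolase, had overlapping ranges of 0 to 29.6 CPM in T+pH and 0 to 2.62 CPM in T, with log2 fold changes of 3.39 and 3.38 (FDR 0.0451 for both). They share most of their counts and are not separate evidence, and neither passed without PO12, PO15, pH libraries PO5 or PO11 or any one of the 4 T libraries (FDR up to 0.218), nor after thinning (FDR 0.474 for i1 and 0.435 for i2).

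Not all enzymes of sugar phosphate metabolism were higher. The beta subunit of pyrophosphate-fructose 6-phosphate 1-phosphotransferase (DN68436_c0_g1_i1), a reversible enzyme of glycolysis in the cytosol of plants, was lower in T+pH. It had 165, 177, 167, 60.5 and 0 CPM in T+pH, against 607, 765, 1086 and 347 CPM in T. Every T+pH library was below every T library, with PO19 at 0 counts. The log2 fold change was -2.52 ± 0.49 (SE, FDR 0.00938), with an FDR of 0.0593 without PO15. In the pH treatment its mean was 169 ± 48.4 CPM and in the control 463 ± 235 CPM (SD, n = 4 each), a log2 fold change of -1.49 (unadjusted p = 0.00591, edgeR, FDR 0.939).

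Over the list of 12 transcripts for the Calvin cycle and glycolysis, 6 were higher in T+pH, 1 was lower and 5 did not pass, where 0.0507% of all tested transcripts were higher and 0.0896% lower. The 12 come from 11 assembled genes. Their median log2 fold change was 2.90, with positive values in 11 of 12, against 13087 of 25661 positive over all tested transcripts. Among those that did not pass were a phosphoglucomutase (DN72209_c0_g2_i1, 2.78, FDR 0.0628), a triose-phosphate translocator (DN75856_c1_g1_i1, 2.01, FDR 0.0912) and phosphoglycerate kinase (DN75667_c0_g1_i2, 2.59, FDR 0.102). Most members of this and the other lists have a name because the study called them in comparisons with the same T+pH libraries, so that these counts are not independent evidence of a direction. Without PO15, 3 of the 12 were higher and none lower, with a median of 2.48. Without PO2, 2 were higher. There were 3 higher without PO12, PO1 or PO18, after thinning, and with the log10 library total as a covariate. In other runs more were higher, 8 without PO6 or PO7 and 9 with no filter on low counts.

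**Figure D3:**
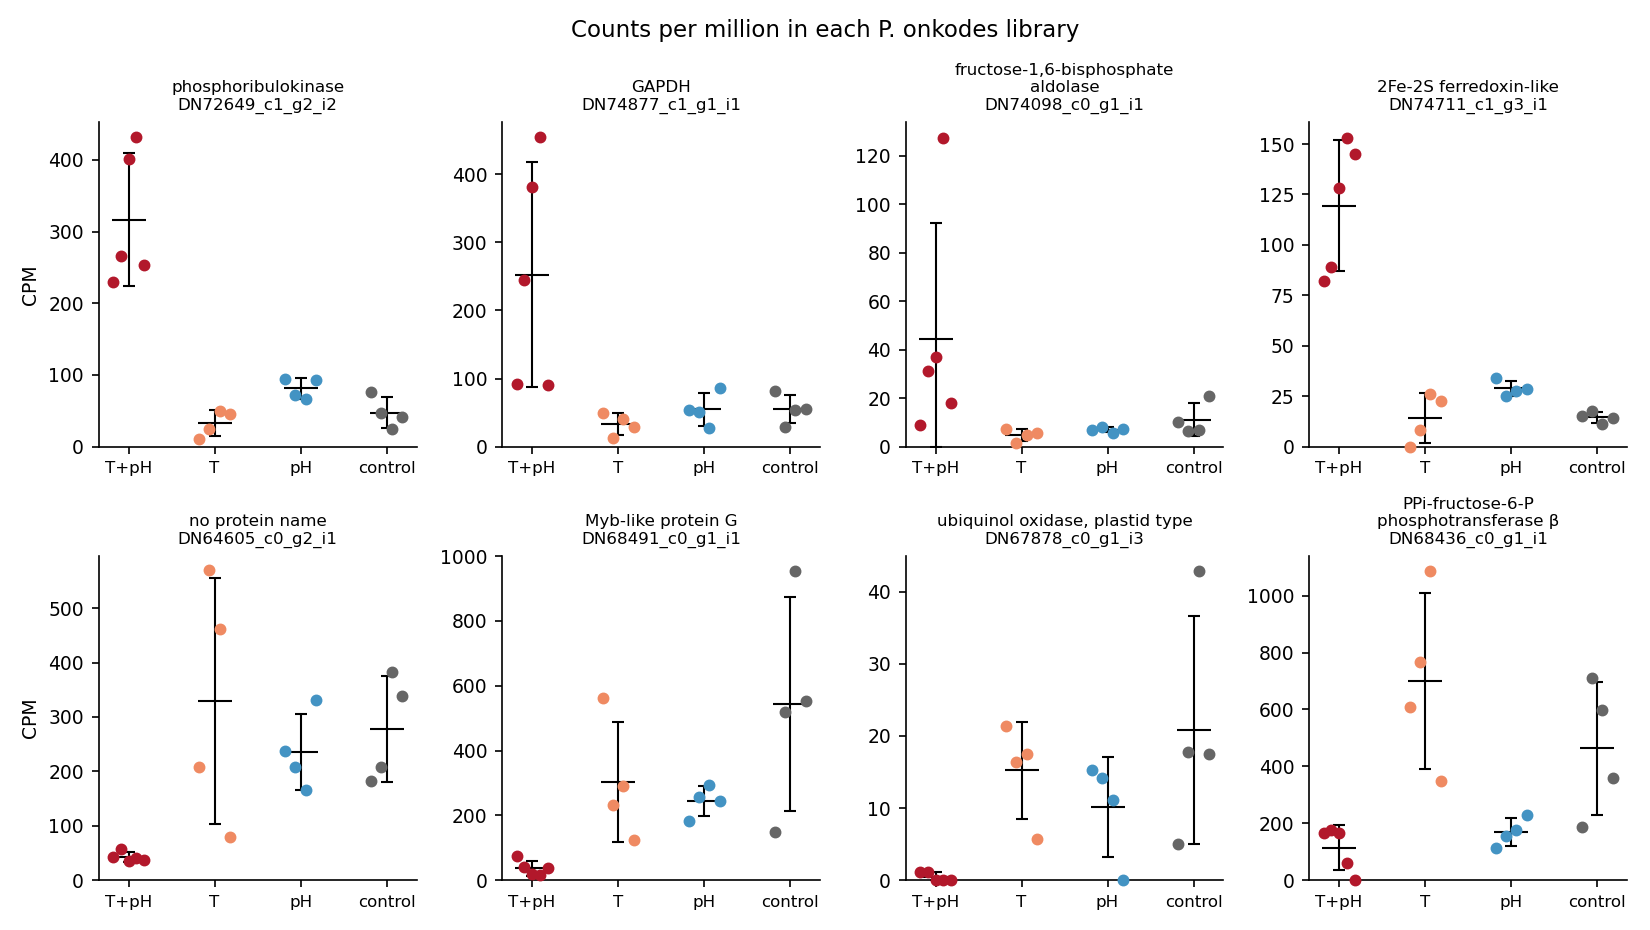
CPM in each library (points; y axis from 0) of 8 DEGs in T+pH, T, pH and the control (x axis), with the mean and SD of each treatment in black. In the upper row the T+pH libraries lie above all T libraries, with phosphoribulokinase at 230 to 431 CPM in T+pH and 10.7 to 50.1 CPM in T; in the lower row they lie below all T libraries.

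A ferredoxin-like transcript (DN74711_c1_g3_i1), an electron carrier with an iron-sulfur cluster, was higher in T+pH. It had 82.0, 89.2, 128, 153 and 145 CPM in T+pH, against 0, 8.20, 26.3 and 22.7 CPM in T, without overlap. The fitted log2 fold change was 3.05 ± 0.52 (SE, FDR 0.00136). The annotation gives it 2 names, a green algal ferredoxin and a mitochondrial adrenodoxin-like protein, so its place in the cell is not settled by the name. With all libraries thinned to the smallest total, its FDR was 0.0735.

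It was the only DEG among 13 transcripts of the photosynthetic apparatus (0.140% of all tested were DEGs). Of the 13, 12 had positive values and the median log2 fold change was 1.75. The gamma subunit of the plastid ATP synthase (DN70084_c0_g1_i2) had the next smallest p (2.12, FDR 0.0817) and the R-phycoerythrin gamma chain had a value of 1.66 (FDR 0.174). Photosystem II CP47, DN73640_c0_g1_i1, had the one negative value (-1.53, FDR 0.740), from 26 counts in T+pH and 39 in T. All 6 transcripts for photorespiration and glycine had positive values (median 2.05), and none passed. Serine-pyruvate aminotransferase (DN74502_c6_g1_i1), which acts in the peroxisomal steps of photorespiration in plants, had the smallest p in that list. It had 139, 165, 1283, 1459 and 2228 CPM in T+pH, against 32.1, 102, 110 and 11.4 CPM in T. The ranges did not overlap and 3 of the 5 T+pH libraries were far above the other 2, and its log2 fold change of 3.92 ± 0.85 (SE) had an FDR of 0.0979.

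In the pentose phosphate pathway and NADP list, 1 of 4 transcripts was higher and 1 lower (0.0507% and 0.0896% of all tested). Their median was -0.02. Glucose-6-phosphate dehydrogenase (DN74965_c0_g4_i1), the entry enzyme of the oxidative branch and a source of NADPH, had 0 to 31.3 CPM in T+pH and 64.9 to 102 CPM in T (log2 fold change -2.25, FDR 0.0451). This call was kept with 4 of the 17 libraries left out in turn and lost with the other 13. Among the 13 were PO12, PO15 and PO19 of T+pH and all 4 T libraries, with FDRs of up to 0.241. Of 14 other alternative runs, 6 kept the call. A transcript with a 6-phosphogluconate dehydrogenase NAD-binding domain (DN70344_c0_g1_i2), which the annotation also names a 3-hydroxyisobutyrate dehydrogenase-like protein, had 36.2 to 122 CPM in T+pH and 10.7 to 18.8 CPM in T (2.32, FDR 0.0211). It did not pass without PO12, PO15, PO1, PO2 or PO8 (FDR up to 0.193), and with all libraries thinned its log2 fold change was 1.27 (FDR 0.737). The second name belongs to valine breakdown and not to the pentose phosphate pathway. Transaldolase (DN69532_c0_g1_i2), of the non-oxidative branch, had a value of -1.82 with ranges that did not overlap and an FDR of 0.0658.

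Among DEGs with a protein name, the largest decrease was in a plastid-type ubiquinol oxidase (DN67878_c0_g1_i3). It had 1.14, 1.16, 0, 0 and 0 CPM in T+pH, against 21.4, 16.4, 17.5 and 5.69 CPM in T. These are 3 counts in all T+pH libraries and 71 in all T libraries, so the level per library in T+pH is near or under what 1 count can show. The pooled ratio of T+pH over T was 0.0285 (exact binomial 95% interval 0.00574 to 0.0867, counting error only), and the fitted log2 fold change was -4.64 ± 0.82 (SE, FDR 0.00223). Without PO15 the FDR was 0.0578. The sister isoform DN67878_c0_g1_i1 had 1 count in T+pH and 30 in T, a pooled ratio of 0.0225 (interval 0.000551 to 0.135, FDR 0.0253), and lost its call without PO12, PO15 or PO2 (FDR up to 0.250). In the pH treatment the isoform with the larger counts had 0 to 15.3 CPM and in the control 5.073 to 42.8 CPM.

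In the list of stomatins, DnaJ proteins and alternative oxidases, 3 of 8 transcripts were lower in T+pH (0.0896% of all tested) and none was higher. The 8 come from 5 assembled genes, and 2 of the 3 calls are isoforms with the same counts, so that the calls stand for 2 assembled genes. All 8 values were negative (median -1.71). A DnaJ chaperone (DN69846_c0_g1_i2 and i5), a co-chaperone of HSP70 proteins, had 32.02 to 134 CPM in T+pH and 153 to 492.7 CPM in T for both isoforms, whose counts were the same in the 9 libraries (log2 fold change -1.95, FDR 0.0448). The ranges did not overlap, but the call was kept with only 6 of the 17 libraries left out in turn. Leaving out any one of 11 ended it, with FDRs of up to 0.246. These were PO7, PO12 and PO15 of T+pH and PO1, PO2 and PO18 of T. The rest were PO5 and PO11 of pH and PO10, PO16 and PO17 of the control. Of 14 other alternative runs, 5 kept the call for each isoform. A stomatin (DN76627_c1_g1_i1), of a family of membrane scaffold proteins, had a value of -1.86 without overlap (FDR 0.0633), and the mitochondrial ubiquinol oxidase (DN71368_c0_g1_i3) had -1.32 (FDR 0.442).

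Nitrogen and sulfur transcripts had mostly negative values: 8 of 9 were negative and the median was -1.32. Of the 9, 1 was lower (0.0896% of all tested) and none was higher. The DEG was a high affinity nitrate transporter (DN68840_c0_g1_i4), which takes nitrate up at low concentration, with 0 to 34.8 CPM in T+pH and 71.4 to 103 CPM in T (log2 fold change -2.16, FDR 0.0384). It did not pass without PO12, PO15, pH library PO11 or any one of the 4 T libraries (FDR up to 0.209). In the pH treatment its mean was 119 ± 24 CPM and in the control 117 ± 43.7 CPM (SD, n = 4 each). A second nitrate transporter (DN76693_c0_g2_i2) and adenylylsulfate reductase (DN71125_c0_g2_i1), an enzyme of sulfate reduction, had -1.83 (FDR 0.126) and -1.32 (FDR 0.169), both without overlap.

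Among lipid transcripts, 1 of 16 was higher (0.0507% of all tested), none was lower and the median was 0.86. The DEG was malonyl CoA-acyl carrier protein transacylase (DN69441_c0_g3_i1), which loads the fatty acid synthase of plastids and bacteria and whose closest match was bacterial. It had 0 to 43.0 CPM in T+pH and 0 to 2.30 CPM in T, with 8 counts over all T libraries (log2 fold change 3.60, FDR 0.0300), and it did not pass without PO12, PO15 or any one of the 4 T libraries (FDR up to 0.273), nor after thinning (FDR 0.218).

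No DEG was found in 3 other lists. Storage and wall polysaccharides had a median of -0.94 over 9 transcripts, and their smallest p belonged to alpha-glucan phosphorylase (DN76537_c0_g1_i1), which frees glucose phosphate from storage glucans, at -1.53 without overlap (FDR 0.175). Ion, carbon and pH transport had a median of 0.27 over 9 transcripts. Its smallest p belonged to a succinate-acetate/proton symporter with a bacterial match (DN75257_c0_g3_i1), at -2.66 without overlap (FDR 0.0592), while an alpha carbonic anhydrase (DN71040_c0_g2_i2), an enzyme that interconverts CO2 and bicarbonate, had -1.73 (FDR 0.823). Membrane transporters had a median of 1.80 over 12 transcripts of 7 assembled genes, 6 of which were isoforms of a cystinosin (DN69992_c0_g1) with nearly the same counts and values of 1.80 (FDR 0.0979).

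**Figure D4:**
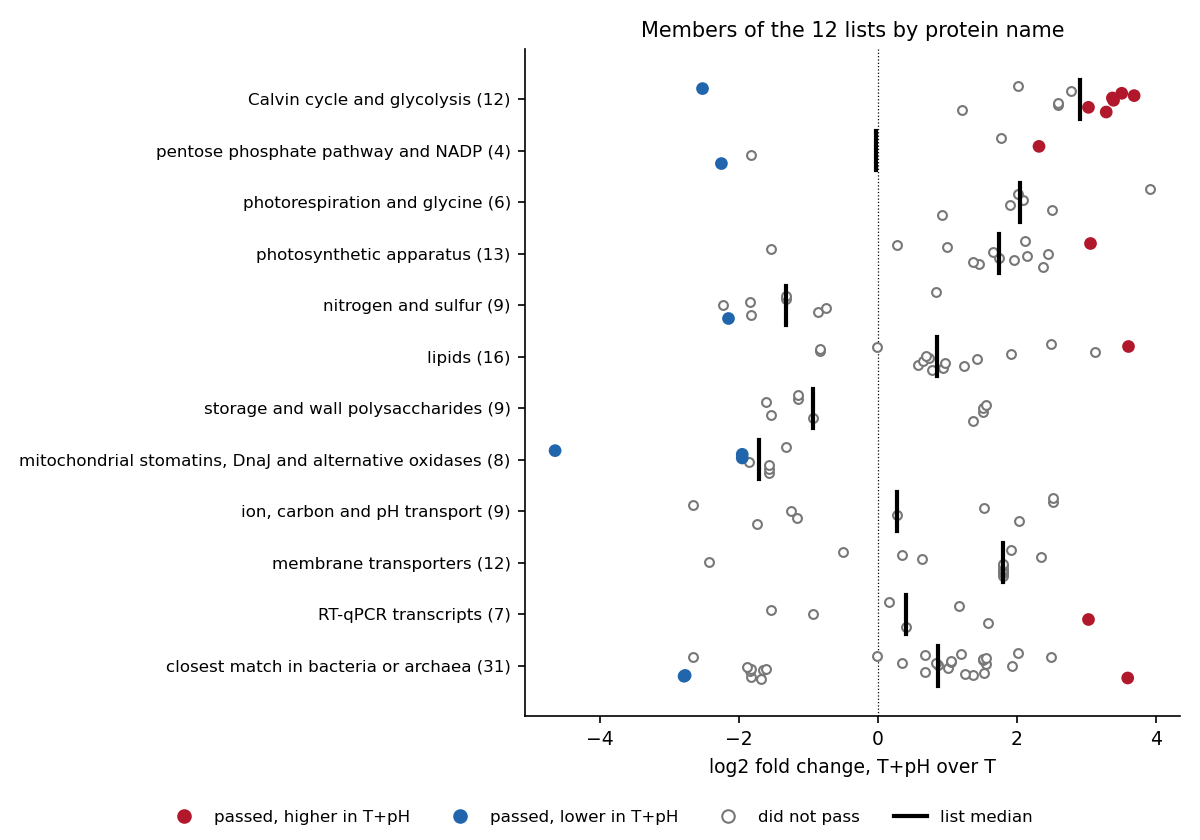
Log2 fold change of T+pH over T (x axis) for each member of 12 lists (rows, with the number of members). Red and blue points passed the test as higher or lower in T+pH, open circles did not, and black bars are list medians; the Calvin cycle and glycolysis list has a median of 2.90 and the list with stomatins, DnaJ and alternative oxidases one of -1.71.

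The list of 31 bacterial or archaeal matches held 1 higher and 2 lower DEGs (0.0507% and 0.0896% of all tested). Its median was 0.86 and 20 of the 31 values were positive, although the summed level was lower in most T+pH libraries. Both lower ones were isoforms of DN70529_c0_g2, matched to a cyanobacterial protein of the UPF0187 family, whose members in plants are bestrophin-like anion channels of the thylakoid. Isoform i1 had 14.2, 9.27, 4.93, 4.24 and 0 CPM in T+pH, against 85.7, 41.7, 56.4 and 45.5 CPM in T. Isoform i2 had 14.2, 9.27, 4.93, 4.54 and 0 CPM in T+pH, against 89.3, 40.01, 55.1 and 45.5 CPM in T. For both, all T+pH libraries were below all T libraries, but the 0 counts in PO19 allow up to 54.3 CPM. The log2 fold changes were -2.79 ± 0.51 and -2.77 ± 0.50 (SE, FDR 0.00325 for both), with an FDR of 0.0578 without PO15. With all libraries thinned, DN70529_c0_g2_i1 had a log2 fold change of -1.67 (FDR 0.665) and DN70529_c0_g2_i2 one of -3.52 (FDR 0.0382), although their full counts were nearly the same. A match in bacteria does not tell whether the RNA came from the alga, its plastid or bacteria on it.

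In the RT-qPCR set of 7 transcripts, GAPDH was the only DEG (0.140% of all tested were DEGs). The reference transcripts, beta-tubulin (DN76782_c6_g1_i1) and heme oxygenase (DN95780_c0_g1_i1), had log2 fold changes of 0.41 (FDR 1) and 1.59 (FDR 0.955). Beta-tubulin had 11 counts in T+pH and 5 in T, and heme oxygenase had 326 CPM in PO19 and 4.59 to 45.5 CPM in the other 8 libraries.

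A Myb-like protein G (DN68491_c0_g1_i1), matched to a DNA-binding protein of Dictyostelium, had the smallest p among the lower named proteins. It had 74.1, 40.5, 19.7, 14.5 and 36.2 CPM in T+pH, against 561, 233, 289 and 125 CPM in T. No T+pH library reached the lowest T library, and PO15 and PO12 were the lowest. The log2 fold change was -3.001 ± 0.50 (SE, FDR 0.00136), and without both PO12 and PO19 the FDR was 0.126. Its mean was 245 ± 45.9 CPM in the pH treatment and 543 ± 330 CPM in the control (SD, n = 4 each).

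A protein name was lacking for 18 of the 36 DEGs. The one with the smallest p was DN64605_c0_g2_i1, which had 42.2, 57.9, 34.5, 39.9 and 36.2 CPM in T+pH, against 207, 569, 462 and 79.6 CPM in T. The T+pH libraries were close to each other and below all T libraries (log2 fold change -2.95 ± 0.46, SE, FDR 0.000393). The pH treatment had 166 to 330 CPM and the control 183 to 383 CPM. This transcript, phosphoribulokinase and GAPDH were the 3 DEGs called in every alternative run.

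DN64633_c0_g2_i1 had 33.6, 6.95, 2.46, 0.605 and 0 CPM in T+pH, against 414, 135, 197 and 91.0 CPM in T. The treatments did not overlap, PO6 was far above the other T+pH libraries, and the pH treatment and control had means of 191 ± 38.3 and 185 ± 26.6 CPM (SD, n = 4 each). The fitted log2 fold change was -4.20 ± 0.73 (SE, FDR 0.0184). The FDR was 0.0810 without PO19 and 0.116 with only the 9 T+pH and T libraries in the fit, and without PO6 the fold change was -6.18 (FDR 2.80e-09).

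DN72116_c0_g3_i2 had 49.0, 49.8, 17.2, 19.1 and 0 CPM in T+pH, against 196, 155, 173 and 165 CPM in T, without overlap (log2 fold change -2.44 ± 0.45, SE, FDR 0.00359, and 0.0578 without PO15). DN76115_c4_g1_i1 had 132, 92.7, 51.7, 28.7 and 18.1 CPM in T+pH, against 614, 240, 205 and 353 CPM in T. These did not overlap either (-2.32 ± 0.45, SE, FDR 0.00729), and the FDR was 0.0894 without PO15 and 0.0733 without PO1. DN76620_c5_g2_i3 had 29.1, 59.1, 22.2, 27.2 and 0 CPM in T+pH, against 85.7, 297, 252 and 102 CPM in T. All T+pH libraries were lower (-2.55 ± 0.49, SE, FDR 0.00729), with an FDR of 0.0578 without PO15 and 0.0846 without PO2. The neighbouring assembled gene DN76620_c5_g3_i1 had 72.4 to 244 CPM in T+pH and 175 to 1315 CPM in T, which overlap (-2.32, FDR 0.0300, and up to 0.221 without PO12, PO15, PO19, PO2, PO8 or PO11).

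Among unnamed transcripts, 3 of 2 assembled genes were higher without overlap. Isoforms i2 and i3 of DN70036_c1_g1 had nearly the same counts, with 61.5 to 815 CPM in T+pH and 20.7 to 41.3 CPM in T for i3 (log2 fold change 3.56 for both, FDR 0.0211 and 0.0197). Both failed to pass without PO19, PO1, PO2 or PO18, and i2 also without PO12 (FDR up to 0.0805). Both calls were also lost with the log10 library total as a covariate and without both PO12 and PO19 (FDR up to 0.139). DN73115_c1_g3_i1 had 72.4 to 214 CPM in T+pH and 0 to 34.4 CPM in T (2.46, FDR 0.0448), and its call was lost with 9 of the 17 libraries left out in turn, PO12, PO15, PO19, PO1 and PO18 among them (FDR up to 0.193). Among the lower ones, DN61166_c0_g1_i1 had 0 to 18.1 CPM in T+pH and 21.4 to 66.4 CPM in T (-3.22, FDR 0.0451), and its call was lost with 10 of the 17 left out in turn, all 4 T libraries among them (FDR up to 0.193), and after thinning (FDR 0.427).

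Another 7 unnamed DEGs rested on few counts and had overlapping ranges. No T+pH library held a count of 3 of them, and their bounds take 3 counts summed over T+pH as the floor. All bounds and ratios in this paragraph pool counts over libraries and cover counting error only, not the spread between libraries. DN76477_c0_g4_i1 had 45 counts in T, 40 of them in PO2, which makes the pooled level in T+pH at least 22.3-fold lower. DN32706_c0_g2_i1 had 31 counts in T (at least 15.3-fold lower in T+pH) and DN56967_c0_g2_i1 had 21 (at least 10.4-fold lower in T+pH). For 3 others T+pH held 1 count. These were DN64997_c0_g1_i2 with 57 counts in T (pooled ratio of T+pH over T 0.0118, interval 0.000294 to 0.0686), DN59287_c0_g1_i1 with 40 (0.0169, interval 0.000416 to 0.0994) and DN76970_c4_g4_i1 with 38 (0.0177, interval 0.000438 to 0.105). DN64192_c0_g2_i1 had 45 counts in 3 T+pH libraries and none in T, and was at least 10.1-fold higher. In T, the counts of the 6 lower ones came from 2 or 3 of the 4 libraries. None of the 7 passed without PO15, and each also lost its call without PO2 or without PO8.

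Of the 13 higher DEGs, 10 had their highest T+pH level in PO15. For 27 of the 36 the call was lost without that library, for 17 without PO12 and for 21 without PO2 of T. The direction never changed in these fits.

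The same contrast at 27.2 °C, pH against control, used 8 other libraries and gave 0 DEGs in edgeR (smallest FDR 0.939, 1273 transcripts at an unadjusted p below 0.05) and 0 in DESeq2. Of the 36 DEGs, 28 (77.8%) had the same sign in both contrasts, against 51.9% of all tested transcripts. Both contrasts share one normalization and one estimate of spread but no library. The share was 8 of 13 for the higher DEGs and 20 of 23 for the lower ones. Their pH over control log2 fold changes were small, with medians of 0.24 and -0.72, and 6 of the 36 had an unadjusted p below 0.05. With 1 pH or control library left out, 25 to 32 of the 36 shared the sign, 6 to 12 of the higher and 18 to 23 of the lower ones.

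**Figure D5:**
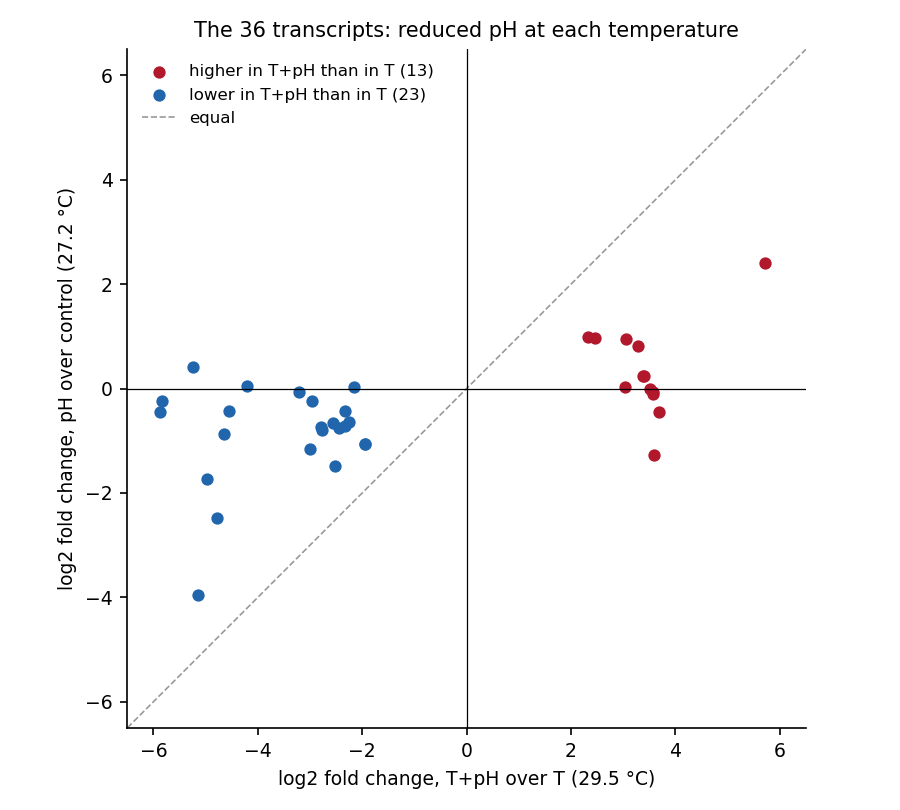
Log2 fold change of T+pH over T at 29.5 °C (x axis) against that of pH over control at 27.2 °C (y axis) for the 36 DEGs, red for the 13 higher and blue for the 23 lower in T+pH. All 36 points lie nearer to 0 on the y axis than on the x axis, and on the dashed line both would be equal; the DEGs were chosen on the x axis.

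Whether reduced pH acted differently at the 2 temperatures was tested with the interaction contrast, (T+pH minus T) minus (pH minus control). It gave 0 DEGs in edgeR (smallest FDR 0.254; 1327 transcripts at an unadjusted p below 0.05) and 1 in DESeq2, DN64605_c0_g2_i1 (FDR 0.0479). Among the 36, 27 had an unadjusted interaction p below 0.05 and the smallest interaction FDR was 0.414. The interaction was positive for all 13 higher and negative for all 23 lower DEGs, a direction that the choice of members on T+pH minus T favours. For phosphoribulokinase (DN72649_c1_g2_i2) it was 2.47 ± 0.65, for GAPDH (DN74877_c1_g1_i1) 3.004 ± 0.72 and for DN64605_c0_g2_i1 -2.71 ± 0.64 (SE, interaction FDR 0.432, 0.414 and 0.414). For the pyrophosphate-dependent phosphotransferase DN68436_c0_g1_i1 it was -1.03 ± 0.69 and for the DnaJ isoform DN69846_c0_g1_i5 -0.89 ± 0.64 (SE, interaction FDR 1 for both). In the main edgeR fit, a different response at the higher temperature was thus not detected for these transcripts at this depth after adjustment. Some other edgeR runs did call an interaction for a few of the 36, such as DN64633_c0_g2_i1 with no filter on low counts (FDR 0.00214). The section on processing below lists these runs.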

How the data were processed

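CEL-Seq2 libraries were made by the authors with ERCC spike-ins and sequenced on one NovaSeq lane. Per their methods, reads were trimmed, mapped with bowtie2 to the species' de novo Trinity transcriptome and counted with the CEL-Seq pipeline; bcl2fastq and FastQC are named in the submitters' processing notes. The deposited values are whole-number UMI counts per transcript, not normalized. Whether the described correction for UMIs shared by chance is in them is not given in the sources used here. Isoforms of an assembled gene can share counts: 2015 tested transcripts (7.85%) had the same counts as another isoform. The S. durum table was not used here.

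Treatments were taken from the sample names. Counts were analysed with edgeR 4.0.16 (R 4.3.3; limma 3.58.1) over 17 libraries, with TMM normalization, the quasi-likelihood F-test in its earlier form with robust estimation, a design of treatment only and transcripts with a total of 5 or more over the 9 T+pH and T libraries. CPM used TMM-scaled sizes, and SE is the absolute log2 fold change divided by the root of F. Intervals for pooled ratios are exact binomial at 95% and, like the floor of 3 counts, cover counting error only. All pairs of libraries within each of the 4 treatments differed beyond sampling noise. The model script was tested on simulated data: folds were recovered with the right sign, but the share of false calls was above the FDR threshold, more so with transcript-wise than with trended dispersions. Alternatives were DESeq2 1.42.0, other filters, normalizations and fits, thinning, a depth covariate, isoforms summed, |log2 fold change| above 1 and each library left out; the one without PO12 and PO19 was chosen after seeing the data. All DEGs were named; per-library values were given for the 14 with the smallest p among those with a protein name or non-overlapping ranges. Figures used Python 3.11.15 and matplotlib 3.10.9. The members and lists were chosen with earlier results of these data known. No genome or transcript sequence was used here, so no position is given.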

Additional observations from a re-analysis of the deposited data

Results flagged for a closer look

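By Dixon's test at 95%, one library stood far from the others in 7 of 70 sets of values, each set being one transcript or the library totals in one treatment. For 4 of the 7 this followed from the arithmetic alone, because a single count beside 0 in the other 4 libraries always passes that test. Among the other 66 sets it was so for 3 (4.55%), where chance gives about 1 in 20. In T+pH, fructose-1,6-bisphosphate aldolase DN74098_c0_g1_i1 had 127 CPM in PO15 and 36.9 CPM in the next library, and DN64633_c0_g2_i1 had 33.6 CPM in PO6 and 6.95 CPM in the next. The 4 single counts, all in T+pH, were DN64997_c0_g1_i2 and DN76970_c4_g4_i1 at 0.303 CPM in PO15, DN67878_c0_g1_i1 at 0.570 CPM in PO6 and DN59287_c0_g1_i1 at 2.46 CPM in PO12. In T, DN61166_c0_g1_i1 had 66.4 CPM in PO8 and 26.2 CPM in the next library. No cause was tested for these values. No interaction of temperature and pH passed the test in the main edgeR fit, as given above.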

How the results depend on the processing

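The count of 36 DEGs for T+pH against T became 62 with only the 9 T+pH and T libraries in the fit (33 shared), 138 with no filter on low counts, 19 assembled genes with isoforms summed, 85 with DESeq2 (24 shared) and 10 without PO12 and PO19, the last chosen after seeing the data. Leaving out one library gave 9 to 70. The other alternatives gave 24 to 41. The interaction count (0) was 7 with no filter (DN64633_c0_g2_i1, DN70036_c1_g1_i2 and i3, DN76222_c0_g1_i1, DN63514_c0_g1_i1 and DN71415_c0_g1_i1 and i2), 1 after thinning (DN64633_c0_g2_i1), 2 with depth as a covariate (both DN71415 isoforms) and 1 with DESeq2 (DN64605_c0_g2_i1). Leaving out one library gave 0 to 4: DN64633, DN76222 and both DN70036 isoforms without PO6, and both DN71415 isoforms without PO11. The count for pH against control was 0 throughout. Of 1087 values of the 36 transcripts under alternatives, 836 kept their call, 251 lost it and 0 reversed. DESeq2 gave no adjusted p for 12 of the 36, which are not counted. The call was kept by 7 in all alternatives other than left-out libraries that gave a value. The causes were not tested, except that fewer samples or transcripts enter some of these fits. Without PO2 the median log2 fold change of all transcripts was 0.17. Depth limits what PO19, PO18 and PO1 can show: 1 count was worth 18.1, 5.69 and 3.57 CPM there. No paired analysis was possible because the replicate numbers of the P. onkodes treatments are not shared between them.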

Other observations

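Isoforms i1 and i2 of DN71415_c0_g1, an assembled gene with no protein name that is not among the 36 DEGs and was singled out after its values were seen, had the smallest interaction p of all transcripts. DN71415_c0_g1_i1 had 3.99, 8.11, 2.46, 8.77 and 0 CPM in T+pH libraries PO6, PO7, PO12, PO15 and PO19, against 10.7, 44.9, 18.8 and 28.4 CPM in T libraries PO1, PO2, PO8 and PO18. It had 112.1, 161, 16.63 and 21.5 CPM in pH libraries PO3, PO5, PO11 and PO14, against 15.2, 40.98, 22.5 and 27.9 CPM in control libraries PO4, PO10, PO16 and PO17. The T+pH libraries were below all T libraries, while the pH libraries overlapped the control libraries, with PO3 and PO5 far above. The log2 fold change was -2.13 for T+pH over T (FDR 0.119) and 1.57 for pH over control (FDR 0.939), and the interaction was -3.70 (FDR 0.254 in edgeR's test). DN63514_c0_g1_i1, also unnamed, had means of 1.64 ± 1.63 CPM in T+pH (SD, n = 5) and 14.9 ± 17.6 CPM in T (SD, n = 4), and of 19.3 ± 8.86 CPM in the pH treatment and 2.97 ± 4.25 CPM in the control (SD, n = 4 each), with an interaction of -4.91 (FDR 0.399).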
